A study of Mus musculus with 2 samples.

Results

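RIKEN-named genes are mouse genes that the annotation still lists under the name of a cDNA clone ending in Rik. They were chosen by their read counts: known genes with such a name and 20 or more reads summed over both libraries. The rule took 102 genes, out of 639 RIKEN-named genes with at least 1 read and 3012 in the GENCODE M21 annotation. In the whole series 15631 known genes had reads, and 7516 of them reached 20. The other 7414 known genes with 20 or more reads serve for comparison below.

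The series measured total RNA of gastrocnemius, a fast-twitch calf muscle, as long reads in male mice of the F1 hybrid strain B6CASTF1/J aged 10 days. It holds 1 group of 2 libraries, labelled biological replicates 1 and 2, each from its own tissue sample and 2 micrograms of RNA, with no treatment and no control. Both samples carry the same donor entry in the labels. The p-values below set 1 library against 1 library, so they weigh a difference against counting error alone and hold no estimate of the spread between animals. Replicate 1 held 1145490 mouse reads and replicate 2 held 941841. RIKEN-named genes took 3969 reads (0.347%) in replicate 1 and 3495 reads (0.371%) in replicate 2, and all 102 had reads in both. A level is given as reads per 1000000 mouse reads (CPM). A long read stands for 1 molecule, so counts were not divided by length. The level that no read at all would still allow, taken as 3 reads, is 2.62 CPM for replicate 1 and 3.19 CPM for replicate 2. Shares carry 95% Wilson intervals, and intervals and limits cover counting error only. Among the marker lists, all 7 fast muscle genes had reads in both libraries, with summed levels of 254700 CPM in replicate 1 and 242900 CPM in replicate 2. Fibroblast markers summed to 18610 and 10930 CPM, and Schwann cell markers to 1691 and 1290 CPM. All listed endothelial, erythroid, fat and tendon markers also had reads in both libraries, as did 2 of 3 immune markers. The keratinocyte list summed to 4.365 and 9.556 CPM, with reads for Krt10 and none for Krt5 and Krt14. In bulk tissue, fewer cells of a type and less RNA per cell cannot be told apart.

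A RIKEN name carries no function. It was given when a full-length cDNA clone was the only evidence for a gene, and it is replaced once a protein or an RNA has been described. The first 4 characters of the name mark the cDNA library the clone came from. The names therefore gather short or lineage-specific reading frames, long non-coding RNAs and conserved proteins that were characterised late. All 102 genes matched an entry in the RefSeq table of assembly GRCm38.p6: 88 under the same name and 14 under a newer symbol, such as Norad, Micos13 and Prorp.

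Of the 102 genes, 78 were annotated as protein-coding, 13 as lincRNA, 3 as bidirectional-promoter lncRNA, 3 as processed transcripts, 2 as antisense RNAs and 3 as pseudogenes of various kinds. The 24 genes that are not protein-coding made up 23.5% of the group, against 2.25% of the other genes with 20 or more reads. Few RIKEN-named genes reached the minimum. Of 581 protein-coding ones, 13.4% (10.9 to 16.4%) had 20 or more reads, against 33.8% (33.2 to 34.4%) of 21447 other protein-coding genes. Of 2431 that are not protein-coding, 0.987% (0.664 to 1.47%) did, against 0.537% (0.462 to 0.625%) of 31077 other genes of such types.

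The share of genes with 20 reads differed by the clone library in the name. The 3 commonest prefixes and, among the other common prefixes, the 3 with the highest share are set side by side, so the second set was chosen by its values. Names that begin with 1700, 4930 or 4933, libraries of adult testis, belong to 1304 annotated genes, of which 10 (0.767%) had 20 or more reads. Names that begin with 1110, 1810 or 2310, libraries of late embryo, pancreas and tongue, belong to 142 genes, of which 25 (17.6%) did. Among protein-coding genes alone the counts were 7 of 211 for the testis prefixes and 22 of 50 for the other 3 prefixes. For single prefixes, 9 of 35 genes named 1110, 9 of 61 named 2310 and 7 of 46 named 1810 reached 20 reads, whereas 7 of 520 named 1700 and 2 of 622 named 4930 did. No test was run on the prefixes.

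Levels of the 102 genes were low to moderate. The median gene had 42 reads in all and a mean of 19.7 CPM, with a median of 20.1 CPM in replicate 1 and 21.8 CPM in replicate 2. The other genes had a median of 66 reads and 31.6 CPM. In the list of all 7516 genes ordered by level, the median RIKEN-named gene stood at percentile 31.8, and 35 of the 102 lay above the middle. Since the minimum of 20 reads set the lower end, these are descriptions. The lowest level in 1 library was 3.49 CPM, the highest 286.7 CPM, and the 10 genes with the most reads held 36.7% of the group's reads. At the limit itself, 5930412G12Rik (Fzd10os) had 9 and 11 reads in replicates 1 and 2 and A430046D13Rik had 15 and 5, while just outside it 1700096K18Rik had 11 and 8, 1810026B05Rik 12 and 7, 2610008E11Rik 14 and 5, and 4930523C07Rik 8 and 11.

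**Figure D1:**
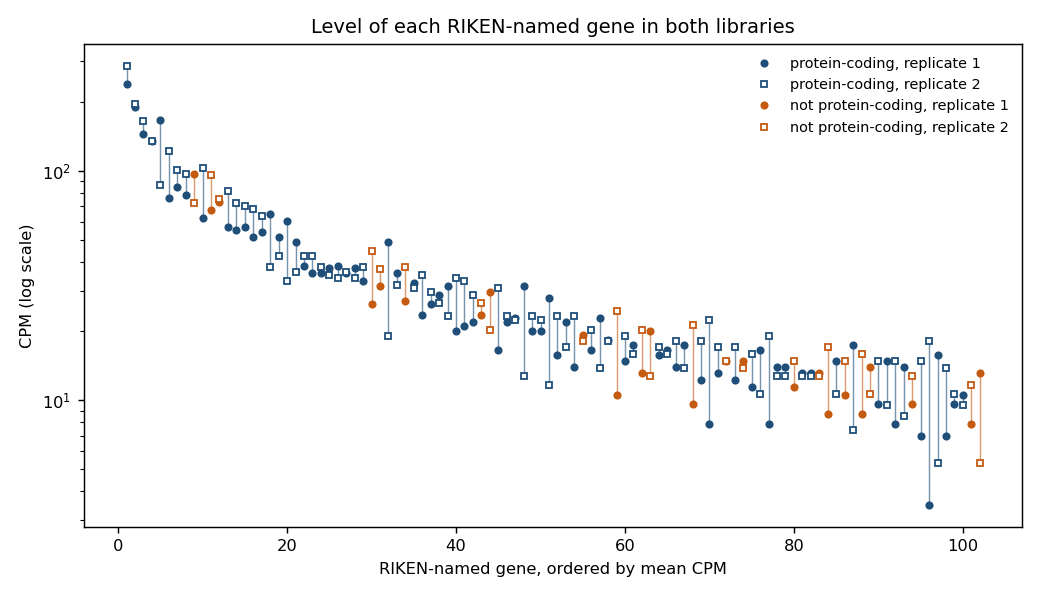
CPM of each of the 102 RIKEN-named genes (log scale), ordered by mean level, with a filled point for replicate 1 and an open square for replicate 2 joined by a line; blue marks protein-coding genes and orange the others. Levels run from 3.49 to 286.7 CPM, and 4833439L19Rik stands highest in both libraries.

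The most abundant gene was 4833439L19Rik, also named P33monox for a putative monooxygenase, with 240.1 CPM in replicate 1 and 286.7 CPM in replicate 2 (263 ± 33, SD, n = 2). It ranked 411 among the 7516 genes. Next came 2310022A10Rik with 189 and 195 CPM, at rank 591. 1110004F10Rik, the small acidic protein Smap, had 145 and 165 CPM. 9530068E07Rik (Kct2), a predicted transmembrane protein, had 134 and 135 CPM. These genes kept close levels in both libraries. 2610507B11Rik (Kiaa0100), a large protein of the bridge-like lipid transfer family, did not: it had 166 CPM in replicate 1 and 87.1 CPM in replicate 2. The other 15 of the top 20 lay between 32.9 and 122 CPM in either library, among them B230118H07Rik (Iftap, an intraflagellar transport associated protein) with 63 and 68 reads and 2010111I01Rik (Aopep, aminopeptidase O) with 51.5 and 42.5 CPM.

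Some members are known under another symbol or synonym as mitochondrial proteins. 2410015M20Rik is Micos13, a subunit of the complex that holds crista junctions in the inner membrane, and had 62.0 CPM in replicate 1 and 103 CPM in replicate 2. 1700021F05Rik is Mtres1, a mitochondrial transcription rescue factor, with 78.6 and 96.6 CPM. 1110008L16Rik is Prorp, the nuclease of mitochondrial RNase P that trims the front ends of tRNAs, with 15 reads in replicate 1 and 12 in replicate 2. 1810058I24Rik is Stmp1, or Mm47, a short transmembrane mitochondrial protein, with 26.2 and 44.6 CPM. No test was run on them as a group, since they were picked by name after the values were seen.

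1810058I24Rik is the 1 member on which the annotations differ as to whether it is protein-coding: GENCODE M21 calls it a lincRNA, RefSeq protein-coding. Its model 1810058I24Rik-203 held 29 of 30 reads in replicate 1 (96.7%, 83.3 to 99.4%) and 36 of 42 in replicate 2 (85.7%, 72.2 to 93.3%). The first open reading frame of 40 or more codons along that model has 47 codons and lies at chr6:35252768-35261233 on the plus strand (mm10). It is shown because GENCODE gives this gene no coding sequence, with the start and stop codons in capitals. Longer frames, of up to 72 codons, lie further along the same model.
1810058I24Rik-203: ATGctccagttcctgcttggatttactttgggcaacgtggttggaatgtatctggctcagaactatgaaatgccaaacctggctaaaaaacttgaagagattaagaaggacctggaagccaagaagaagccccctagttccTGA

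Proteins of the coding members were short. For each gene the annotated coding model with the most reads was taken: the median over the 78 RIKEN-named genes was 235 codons, against 411 codons over 7046 other genes with such a model. Under 100 codons were 6 RIKEN-named genes (7.69%), against 2.88% of the others. The 6 were 1110065P20Rik with 47 codons, 1810037I17Rik with 65, 1600014C10Rik and 1110008P14Rik with 83 each, 0610012G03Rik with 95 and 1810022K09Rik (Rbis, a ribosome biogenesis factor) with 97. Of these 0610012G03Rik was the most abundant, with 87 reads in replicate 1 and 115 in replicate 2, all of them in its single 1-exon model of 1445 nt. The coding sequences of the shortest and of the most abundant are printed to show how small these frames are, with start and stop codons in capitals. Their coding parts lie at chr16:31948164-31948448 and chr4:124849870-124850279, both on the minus strand of mm10, stop codons not counted.
0610012G03Rik-201: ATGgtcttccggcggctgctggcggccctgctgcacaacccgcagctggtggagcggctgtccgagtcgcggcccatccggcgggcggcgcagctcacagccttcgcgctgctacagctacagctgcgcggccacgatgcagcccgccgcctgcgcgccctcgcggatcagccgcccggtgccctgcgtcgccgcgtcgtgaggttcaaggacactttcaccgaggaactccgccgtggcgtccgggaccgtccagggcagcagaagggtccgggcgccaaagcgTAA
1110065P20Rik-204: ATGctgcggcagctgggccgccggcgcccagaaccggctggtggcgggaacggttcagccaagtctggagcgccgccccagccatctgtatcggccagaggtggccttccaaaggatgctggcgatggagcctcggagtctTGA

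1110065P20Rik divided its 32 reads in replicate 1 and 11 in replicate 2 over several annotated models. 1110065P20Rik-204, the source of the printed frame, had 10 and 3 reads, 1110065P20Rik-203 had 9 and 1, and 1110065P20Rik-202 had 3 and 5. The intervals of these models' shares overlap in each library.

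Long non-coding RNAs formed a second group. Norad, listed as 2900097C17Rik, binds Pumilio proteins and is needed for stable chromosome numbers in human cells. It was the most abundant, with 96.9 CPM in replicate 1 and 72.2 CPM in replicate 2. A930003A15Rik, a lincRNA without a described role, had 67.2 and 95.6 CPM and 2 models of nearly equal weight. A930003A15Rik-201 held 40 of 77 reads in replicate 1 and 43 of 90 in replicate 2, and A930003A15Rik-202, with 1 exon more, held 33 and 42. 1700020I14Rik, the lincRNA Oip5os1 or Cyrano that directs the decay of a microRNA, had 73.3 and 75.4 CPM. Its 3-exon model 1700020I14Rik-202 of 8300 nt, the third longest main model in the group, held 42 of its 84 reads in replicate 1 (interval 39.5 to 60.5%) and 38 of 71 in replicate 2 (interval 42.0 to 64.6%). 2310040G24Rik had 31.4 and 37.2 CPM, and 5430431A17Rik 27.1 and 38.2 CPM. 2610005L07Rik, a transcribed pseudogene with 23.6 and 26.5 CPM, can share reads with near-identical copies, so its count is uncertain.

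2310065F04Rik is linc-Myh, described in mouse as a non-coding RNA that favours fast-type over slow-type muscle genes, and lies on the minus strand inside the cluster of sarcomeric myosin genes on chromosome 11 (chr11:67112461-67120080, mm10). It had 12 reads in replicate 1 and 23 in replicate 2 (10.5 and 24.4 CPM), below the myosin heavy chain genes around it on the plus strand. Myh4, the fast IIb myosin heavy chain, had 23390 CPM in replicate 1 and 8871 CPM in replicate 2. Myh3, the embryonic heavy chain 10170 bases away, had 121 and 53.1 CPM. The annotated models of linc-Myh took 0 of its 35 reads. Instead 6 reads in replicate 1 and 5 in replicate 2 crossed an intron of 163 nt at chr11:67113208-67113370 that lies inside its annotated last exon, in a 2-exon model that the files class as genomic. The intron is printed because this model held the most reads of the RNA. Its ends share 3 repeated bases. It begins with GT and ends with AG, the usual first and last bases of an intron, in capitals.
2310065F04Rik intron: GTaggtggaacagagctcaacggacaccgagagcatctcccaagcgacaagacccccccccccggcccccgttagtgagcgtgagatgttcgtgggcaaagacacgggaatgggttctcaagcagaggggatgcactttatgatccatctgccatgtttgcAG

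In replicate 1 the other 6 reads of linc-Myh fell on incomplete models of 1 and 2 exons with 3 reads each. In replicate 2 a 3-exon model with an unannotated splice site held 3 of the 23 reads.

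The models of RIKEN-named genes had few exons. The read-weighted median over a gene's models was taken for each gene. Over the 102 genes its median was 4 exons (quartiles 2 and 6), against 8 exons (5 and 13) over the other genes. The median length was 1973.5 nt (quartiles 1168.5 and 3224) against 2609 nt (1691.5 and 3718). For protein-coding genes alone the medians were 4.5 exons against 8 and 2240.5 nt against 2651 nt. Among genes that are not protein-coding the order turned: 2 exons against 1 and 1263 nt against 792 nt. Processed pseudogenes made up 88 of the 167 others there and none of the RIKEN-named genes. Among genes with 20 to 99 reads the medians were 4 exons against 8. Exon number and length of an annotated model are those of the annotation, not of the reads.

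By the model with the most reads, 16 RIKEN-named genes (15.7%) had 1 exon, 47 (46.1%) had 2 to 4, 32 (31.4%) had 5 to 9 and 7 (6.86%) had 10 or more. The shares among the other genes were 7.15%, 17.5%, 33.3% and 42.0%. In both sets, unannotated 1-exon models of a gene and class were counted together as 1 model. Some of the 16 are therefore genomic or incomplete reads of genes with more exons, not 1-exon genes. In 4931406P16Rik, for example, the main model was 1-exon genomic reads with 20.6% of the reads, while the read-weighted median was 11 exons. The most exons were found in 2610507B11Rik with 39, 0610010F05Rik (Kiaa1841) with 22, D230025D16Rik (Lin10) with 16, 4833420G17Rik with 13 and 6430548M08Rik (Kiaa0513) with 12. The longest main models belonged to 1110002E22Rik with 9741 nt in 2 exons, 1700025G04Rik with 9559 nt in 6 exons and 1700020I14Rik with 8300 nt in 3 exons. These were followed by 2610507B11Rik with 7443 nt and 5031439G07Rik with 6845 nt in 10 exons. The shortest with a usable length were 334 nt in 1500015O10Rik (Ecrg4, precursor of a secreted peptide), 339 nt in Norad, 398 nt in 1700120C14Rik and 435 nt in Rbis. A 1-base model listed for 3425401B19Rik has no usable length.

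**Figure D2:**
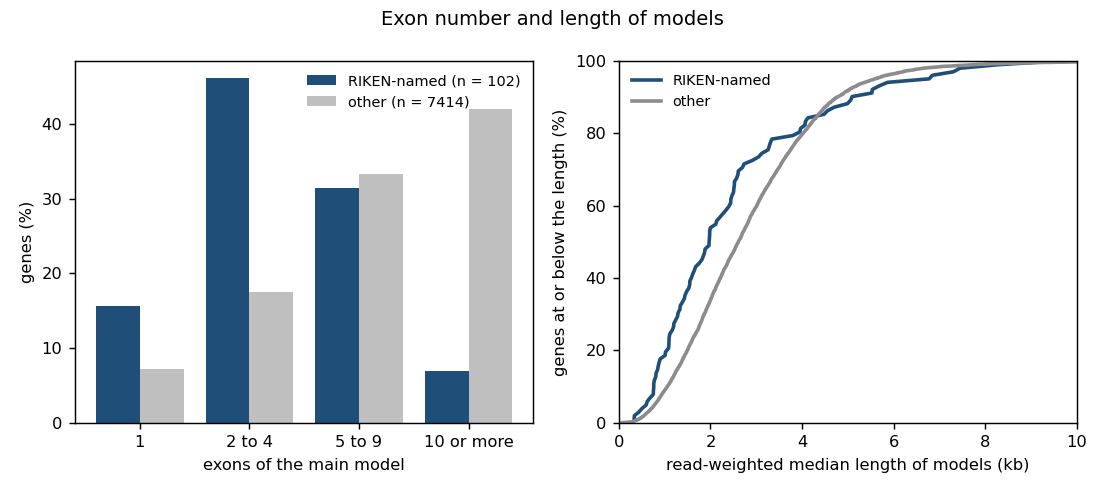
Left, share of genes (%) by exon number of the main model; right, share of genes (%) at or below each read-weighted median length (kb); blue is the 102 RIKEN-named genes and grey the 7414 other genes. Models of 2 to 4 exons hold 46.1% of RIKEN-named genes and 17.5% of the others, and the blue length curve lies above the grey one over most of the range.

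The length of Norad depends on the model. Its model 2900097C17Rik-201 is annotated at 339 nt and held 63 reads in replicate 1 and 34 in replicate 2. The full 4915-nt model 2900097C17Rik-202 held 45 and 34. Both are single exons, so no splice junction tells their reads apart.

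Each read was placed in the deposited class of its model: annotated, incomplete (a part of an annotated intron chain), new combination of annotated splice sites (NIC), unannotated splice site (NNC), or genomic, which overlaps a gene without its exon structure. The deposited NIC and NNC do not always follow GENCODE M21 splice sites. Recomputed from these sites, NNC in the other genes took 12.9% in replicate 1 and 10.1% in replicate 2, against 4.67% and 8.11% as deposited. In RIKEN-named genes it took 6.20% and 6.44%, against 5.24% and 5.21%. Annotated models took 72.3% of the reads of RIKEN-named genes in replicate 1 and 73.6% in replicate 2 (73.0 ± 0.926, SD, n = 2), against 72.6% and 76.9% for the other genes (74.7 ± 2.99). Genomic models took 7.18% and 6.32% (6.75 ± 0.606) against 1.61% and 1.57% (1.59 ± 0.0245). Both libraries thus showed a larger genomic share in RIKEN-named genes, by more than the spread between libraries. That spread does not measure the spread among genes. NIC and NNC together took 11.8% and 13.2% against 17.1% and 14.0% (12.5 ± 0.954 against 15.6 ± 2.14). Incomplete models took 8.67% and 6.87% against 8.69% and 7.53%.

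These shares differed by gene type. In genes that are not protein-coding, annotated models took 65.2% of reads in replicate 1 and 65.3% in replicate 2 for RIKEN-named genes, against 90.2% and 90.2% for the others. Genomic models took 18.1% and 15.5% against 3.78% and 3.41%. These 2 sets differ in structure: 77.8% of the other non-coding genes had a main model of 1 exon, against 33.3% of the RIKEN-named ones. Models of 1 exon hold no intron, so the class shares of the 2 sets are not like for like. In protein-coding genes annotated models took 73.7% and 75.4% against 72.3% and 76.6%, and genomic models 5.01% and 4.37% against 1.57% and 1.55%. At 20 to 99 reads the genomic share was 10.4% and 9.28% against 4.88% and 4.76%. For protein-coding genes with 20 to 99 reads the gap was smaller, 6.90% and 6.17% against 4.73% and 4.63%. The median of the single genes' annotated shares was 81.1% against 80.9%.

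**Figure D3:**
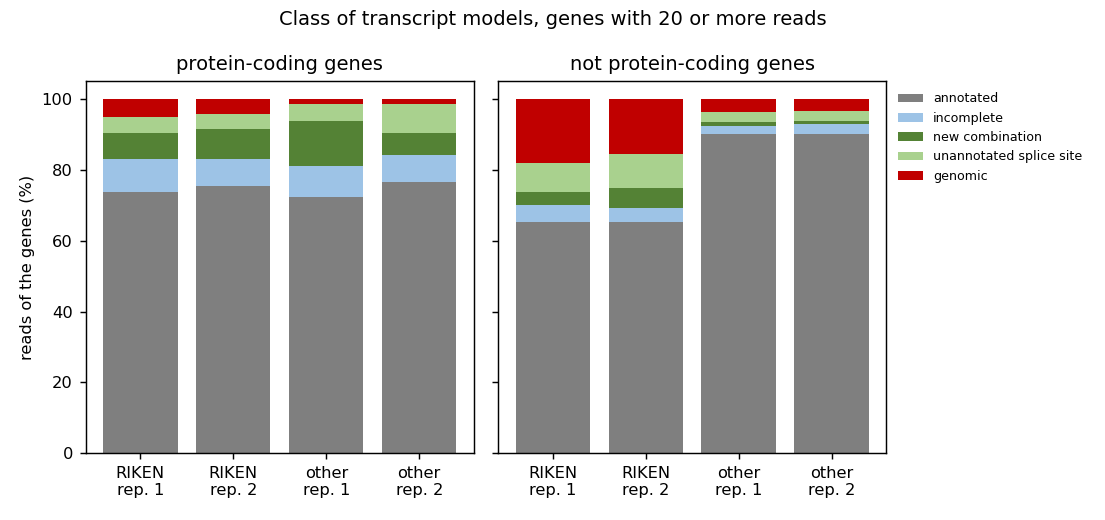
Share of reads (%) in each model class, as deposited, for RIKEN-named and other genes with 20 or more reads. Bars are given per library, for protein-coding genes (left) and the rest (right). Genomic models (red) take 18.1% and 15.5% of reads in non-coding RIKEN-named genes, against 3.78% and 3.41% in the others.

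The genomic reads were spread unevenly over the members. In 16 of the 102 genes (15.7%) genomic models took over 20% of the reads, against 5.26% of the other genes. All reads were genomic in A530058N18Rik, with 34 reads in replicate 1 and 19 in replicate 2, in the pseudogene B330016D10Rik with 22 and 17, and in the antisense RNA 1600010M07Rik with 13 and 14. 1600012H06Rik, which codes for 185 codons, had 23 of 43 genomic reads in replicate 1 (53.5%) and 17 of 33 in replicate 2 (51.5%). 1110002E22Rik, with a main model of 2 exons, had 32 of 74 (43.2%) and 17 of 36 (47.2%), and Cyrano had 20 of 84 (23.8%) and 16 of 71 (22.5%). The source of the genomic reads was not tested.

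At the other end, 8 genes had annotated reads only: 0610012G03Rik, 2310039H08Rik, 2300009A05Rik, 4930579G24Rik, D830050J10Rik, 2010320M18Rik, 1810037I17Rik and 2810013P06Rik. Their main models have 1 or 2 exons. Besides the 3 genes with genomic reads alone, 2310065F04Rik and 2610005L07Rik had no read in an annotated model. Genes without such a read thus numbered 5 of 102, against 183 of the 7414 other genes. In 2610005L07Rik an incomplete 5-exon model of 5092 nt held 15 of 27 reads in replicate 1 and 12 of 25 in replicate 2.

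4833439L19Rik had the largest NIC and NNC share among members with 50 or more reads, 58.5%. Its main model was not annotated: a 7-exon chain with 109 of 275 reads in replicate 1 (39.6%) and 118 of 270 in replicate 2 (43.7%). The 9-exon annotated model 4833439L19Rik-201 held 49 and 39 reads. The main model skips a pair of annotated exons near the 5′ end. The 107-nt exon at chr13:54564515-54564621 was included in 53 spanning reads in replicate 1 (25.5%, 20.0 to 31.8%) and 53 in replicate 2 (23.7%, 18.6 to 29.6%). The 88-nt exon at chr13:54564185-54564272 was included in 78 of 211 (37.0%, 30.7 to 43.7%) and 76 of 224 (33.9%, 28.1 to 40.4%). Intervals of the libraries overlap for both exons. Inclusion was high for a 179-nt exon further along, at 91.9% in replicate 1 and 91.1% in replicate 2. A 127-nt exon reached 94.4% and 95.0%.

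The 88-nt exon holds the annotated start codon of 4833439L19Rik-201. Another annotated start codon, that of 4833439L19Rik-202, lies in the 179-nt exon. The first coding bases of both models, up to the end of the 88-nt exon for the first, are printed from the minus strand at chr13:54564185-54564212 and chr13:54561813-54561842 of mm10, with the start codon in capitals. Which protein the 7-exon chain gives was not analysed here.
4833439L19Rik-201: ATGgcttcaagacaaccagaagtgcctg
4833439L19Rik-202: ATGtccctgcccatcgggatgtgccgtcgg

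**Figure D4:**
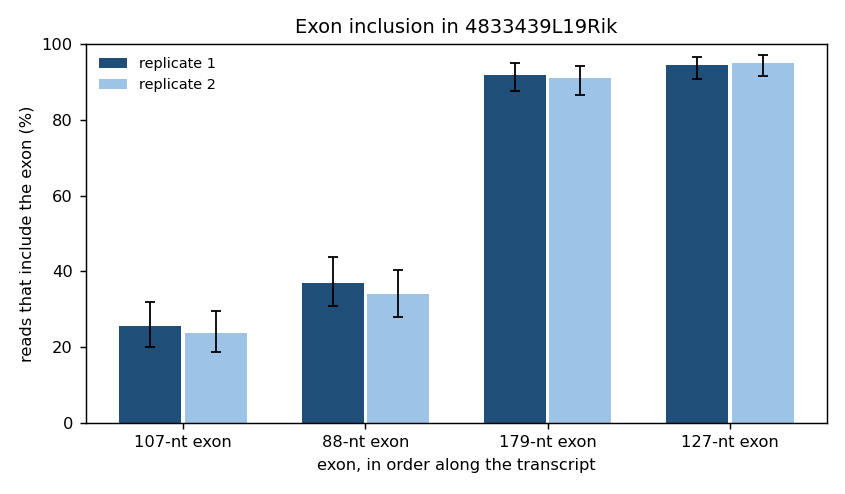
Share of reads (%) that include each of 4 exons of 4833439L19Rik, among reads with introns on both sides or across the exon, in transcript order; bars are the libraries and error bars 95% Wilson intervals. The 107-nt and 88-nt exons lie between 23.7 and 37.0%, the 179-nt and 127-nt exons above 91%.

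Over all members, 159 internal exons in 33 genes were spanned by at least 20 reads per library, and for 9 of them, from 6 genes, inclusion lay between 5 and 95%. Outside 4833439L19Rik the exon of 105 nt in 0610010K14Rik (Bap18, a subunit of chromatin-modifying complexes) was the most balanced. It was in 8 of 26 reads in replicate 1 (30.8%) and 11 of 21 in replicate 2 (52.4%), with overlapping intervals. The 127-nt exon of 2410004B18Rik was in 2 of 21 and 6 of 31. In 9130401M01Rik a 96-nt exon was in 26 of 31 and 21 of 23.

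Reads of the members held introns that GENCODE M21 does not list. At least 3 reads per library crossed 19 such introns, which lie in 12 genes. In 3110040N11Rik an intron at chr7:81780571-81783030 was in 11 of 14 reads in replicate 1 and 13 of 16 in replicate 2. It runs from an annotated splice site to an end past the annotated gene. The annotated model 3110040N11Rik-201 itself had 0 and 2 reads. In B230219D22Rik an intron of 174 nt after the coding part (chr13:55700214-55700387) was in 17 of 44 reads (38.6%) and 22 of 40 (55%), beside 20 and 18 reads of the annotated 2-exon model. It begins with GT and ends with AG. In 9130401M01Rik an intron of 6727 nt outside the annotated gene, before the coding part, was in 12 of 33 and 9 of 25 reads. 1700123M08Rik, a processed transcript, had an unannotated intron of 6816 nt as the only intron of its main model, in 9 of 12 and 8 of 14 reads. 1700120C14Rik had 4 such introns, the first in 8 of 11 and 14 of 20 reads. All 4 unannotated introns that lie inside an annotated exon, where the bases can be read from the transcript sequence, begin with GT and end with AG.

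Many members lie beside a gene on the other strand. A start on the other strand within 1000 bases of a member's own start was annotated for 36 of the 102 genes (35.3%, 26.7 to 45.0%), against 27.7% of the other genes. Among members that are not protein-coding it was 12 of 24 against 14.4%, and among protein-coding ones 24 of 78 (30.8%) against 28.0%. The 12 include 3 bidirectional-promoter lncRNAs, a gene type named for such a position, and the other genes hold only 1 of that type. Processed pseudogenes made up 88 of the 167 other non-coding genes, so the 2 non-coding sets are not like for like. Over genes of all types the order turned at a minimum of 50 reads, with 25% of RIKEN-named genes against 27.8%. For 11 of the 12 non-coding members the neighbour was a protein-coding gene. Of the 36 neighbours, 17 had 20 or more reads, 8 had 1 to 19 and 11 had none. Over all 36 pairs the neighbour lay above the member in 13.

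2310022A10Rik starts 15 bases from Pld3, a lysosomal nuclease gene, and had 189 CPM in replicate 1 and 195 CPM in replicate 2, against 45.4 and 47.8 CPM for Pld3. 0610012G03Rik starts 19 bases from Ncbp2, the small subunit of the nuclear cap-binding complex. It had 76.0 and 122 CPM, against 35.8 and 26.5 CPM for Ncbp2. 1600012H06Rik starts 26 bases from Wdr27 and had 37.5 and 35.0 CPM, while Wdr27 had no reads. 6030458C11Rik, 166 bases from Drosha, the nuclease that cuts primary microRNAs, had 35.8 and 36.1 CPM against 48.0 and 30.8 CPM for Drosha. In 2 pairs the non-coding member was far lower. 0610009L18Rik, 136 bases from the cytoplasmic actin gene Actg1, had 14.8 and 14.9 CPM, against 436.5 and 310.0 CPM for Actg1. 2010320M18Rik, 102 bases from Pik3r2, a regulatory subunit of phosphoinositide kinase, had 8.73 and 17.0 CPM, against 82.9 and 65.8 CPM for Pik3r2.

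The bases between the 2 starts are printed for these 6 pairs to show how close the genes lie, on the member's strand and from RefSeq promoter sequences of GRCm38.p6. They lie at chr7:27553219-27553232, chr16:31948495-31948512, chr17:14943159-14943183, chr15:12824650-12824814, chr11:120348543-120348677 and chr8:70776714-70776814. Capitals mark matches, on either strand, to the letters CCAAT of the CCAAT box, to GGGCGG of the GC box, to TATAAA of the TATA box or to the ETS-type motif CCGGAAG, and adjoining matches run together.
2310022A10Rik to Pld3: gtgcagtctggctt
0610012G03Rik to Ncbp2: gtcgggcgtggccgtccg
1600012H06Rik to Wdr27: ggcgttacctcaCTTCCGGtccctt
6030458C11Rik to Drosha: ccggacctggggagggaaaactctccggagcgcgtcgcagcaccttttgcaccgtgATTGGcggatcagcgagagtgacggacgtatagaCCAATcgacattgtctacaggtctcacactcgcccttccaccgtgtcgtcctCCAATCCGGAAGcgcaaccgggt
0610009L18Rik to Actg1: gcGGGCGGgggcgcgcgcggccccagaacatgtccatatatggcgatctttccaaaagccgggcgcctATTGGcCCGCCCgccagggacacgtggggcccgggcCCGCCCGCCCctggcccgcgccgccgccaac
2010320M18Rik to Pik3r2: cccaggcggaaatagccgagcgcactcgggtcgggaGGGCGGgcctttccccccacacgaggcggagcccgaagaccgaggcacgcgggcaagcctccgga

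Promoter entries were found for 84 of the 102 genes, each from 250 bases before to 50 bases after the start. GGGCGG stood in 54.8% of them, against 67.3% of 5794 other genes with 20 or more reads and 35.9% of all 27025 genes in the table. CCGGAAG stood in 27.4%, against 20.1% and 9.12%. CCAAT stood in 38.1%, against 39.6% and 37.9%, and TATAAA in 10.7%, against 7.04% and 14.2%. The median GC content was 61.7%, against 61.3% in other genes with 20 or more reads and 52.7% in the whole table.

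The libraries were compared gene by gene with an exact two-sided binomial test, adjusted by Benjamini-Hochberg over all 7516 genes. This compares 2 libraries and not conditions. A call needed a 2-fold difference besides an adjusted p below 0.05. Of the 102 RIKEN-named genes 2 were called, or 1.96%, near the 2.75% called among all genes. 3425401B19Rik is Cefip, a Z-disc protein of striated muscle. It had 56 reads in replicate 1 and 18 in replicate 2 (48.9 and 19.1 CPM), a log2 ratio of 1.36 (adjusted p = 0.00533, exact binomial test). 9330159F19Rik had 4 and 17 reads (3.49 and 18.05 CPM), a log2 ratio of -2.37 (adjusted p = 0.0208, exact binomial test). The adjusted p, but not the 2-fold limit, was met by 3 more members: 2610507B11Rik with a log2 ratio of 0.93, 0610012G03Rik with -0.68 and Micos13 with -0.73. At the adjusted p alone, 5 of the 102 members passed, against 685 of all 7516 genes.

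The classes of the reads of Cefip differed between the libraries. In replicate 1, 27 of its reads were genomic single-exon models, listed with a main model of 1 base, against 1 in replicate 2. In replicate 2, 13 reads were an incomplete single-exon model of 5060 nt, against 0 in replicate 1. The fully spliced annotated model 3425401B19Rik-201 had 8 and 3 reads. With genomic reads left out the log2 ratio was 0.49 (adjusted p = 0.641, exact binomial test).

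Differences between the libraries also went with transcript length. For members under 1000 nt the median log2 ratio of replicate 1 over replicate 2 was -0.27 (18 genes), from 1000 to 2000 nt it was -0.24 (37 genes), from 2000 to 4000 nt -0.18 (28 genes) and from 4000 nt up 0.18 (19 genes). The other genes showed -0.32, -0.12, 0.04 and 0.33 over the same ranges. Judged against genes of like length, Cefip was no longer called (log2 ratio 0.97, adjusted p = 0.116, exact binomial test), while 9330159F19Rik was (log2 ratio -2.75, adjusted p = 0.00396, exact binomial test).

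**Figure D5:**
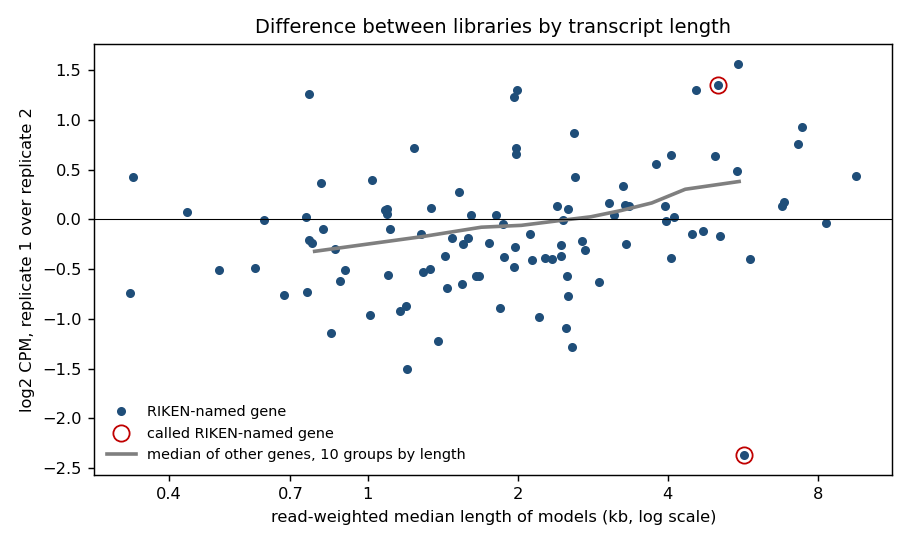
Log2 ratio of CPM, replicate 1 over replicate 2, of each RIKEN-named gene against the read-weighted median length of its models (kb, log scale), with called genes circled and a grey line for the median of the other genes in 10 groups by length. The called genes lie at 1.36 and -2.37, and the grey line rises with length.

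Shares of single models were compared by Fisher's exact test in the 44 RIKEN-named genes that reached 20 reads per library, over 443 models and with adjustment over all 70756 models tested. A call needed a difference of 10 points besides an adjusted p below 0.05. None was called, against 0.148% of all models. An unadjusted p under 0.05 was found for 12 of the 443 models, against 1588 of all 70756. The smallest p among the 443 belonged to 1700025G04Rik, where an unannotated model held 1 of 56 reads in replicate 1 and 7 of 34 in replicate 2 (adjusted p = 0.59, Fisher's exact test).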

How the data were processed

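Gastrocnemius total RNA of 2 libraries was analysed. The deposited values are counts: per the file headers, the authors list raw reads for each transcript model with 1 or more read, with no normalization. Models were built on mm10 and GENCODE M21 and carry TALON attributes, per the file headers; the sources used here name no aligner and no version. As to the pipeline document, the labels cite pipeline document version 3.1 for replicate 1 and 3.0 for replicate 2, so document and library cannot be told apart. Exon numbers and lengths are those of the deposited models. With 1 library on each side, p-values weigh differences against counting error only, and 1 group allows no comparison of conditions.

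Members and lists were chosen with earlier results of these data known. Reads were summed over all models of a gene, spike-ins left out. Unannotated models were matched between libraries by intron chain, and 1-exon models by gene and class. Genes with 20 or more reads were tested by an exact binomial test, and shares, where both libraries held at least 20 reads, by Fisher's exact test, with Benjamini-Hochberg adjustment over all genes or models; both were tested on simulated data. Unequal library sizes set the expected share. A fold against 0 used 0.5 reads. Positions, coding sequences and transcript sequences came from GENCODE M21, promoters from RefSeq.

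Genes named are the 20 members of highest level, the 8 non-coding ones of highest level, those next to the limit of 20 reads, those called, those with the largest unannotated or incomplete shares at 50 or more reads, the longest, shortest and most exon-rich main models, 1-exon genes and divergent pairs; others were picked after their values were seen. A planned grouping by RefSeq descriptions could not be applied, since the table holds none; gene types and RefSeq synonyms were used. Alternatives covered scaling (edgeR TMM, DESeq2 size factors), read minima, model classes, neighbour distances and single libraries; a fit per length bin and recomputed NIC and NNC classes were added after the data were seen. Leaving out 1 library leaves no test. Python 3.11.15, numpy 2.4.6, scipy 1.17.1, pandas 2.3.3, matplotlib 3.10.9, R 4.3.3, edgeR 4.0.16 and DESeq2 1.42.0 were used.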

Additional observations from a re-analysis of the deposited data

Results flagged for a closer look

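Reads of unannotated genes on the other strand of a member, a class that enters none of the comparisons above, passed the limit of 3 reads in each library at 5 members. Over Norad (2900097C17Rik) they numbered 302, with 152 in replicate 1 and 150 in replicate 2, against 111 and 68 reads of Norad itself. All of them lie in 1 single-exon model per library, at chr2:156388065-156391514 in replicate 1 and chr2:156389044-156391513 in replicate 2, inside the annotated gene. Over 5430431A17Rik there were 48, with 26 and 22, against 31 and 36 reads of the gene. Over Aopep (2010111I01Rik) there were 17, over 1700025G04Rik 10 and over 1810013L24Rik 10. In all, 44 of the 102 members had such a read, and 98.3% of these reads were in single-exon models. The reads numbered 240 in replicate 1 and 241 in replicate 2, so Norad alone held most of them. The other genes were not counted in this way, so neither figure is set against them. Whether the authors counted by strand is not stated in the sources used here, and the source of these reads was not tested.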

How the results depend on the processing

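The 2 called members were called under TMM, DESeq2 size factors, a library size without mitochondrial genes and no read minimum. The count was 0 at a minimum of 100 reads and 0 with annotated models only, where both genes fall below the minimum and were not tested; 9330159F19Rik had 3 and 15 annotated reads and Cefip 8 and 3. It was 1 without genomic reads (9330159F19Rik) and 5 at any fold. A fit per length bin called 2, 9330159F19Rik and 1110065P20Rik. Over all genes, 202 were called under TMM, 199 under DESeq2 size factors, 207 without mitochondrial genes and 157 without a minimum. At a minimum of 100 reads 59 were called, with annotated models only 163 and without genomic reads 224. At any fold 685 were called, and per length bin 129. Share calls were 0 except for 1 at 10 reads in each library, in Cefip. At that setting 111 models of all genes were called. No paired analysis was possible because the series has 1 group. The median level was 39.8 CPM at a minimum of 50 reads, 6.68 at 5 and 15.2 with annotated models only, below that of other genes each time; over single libraries it lay between 20.1 and 21.8. The annotated share was 74.3% and 70.9% at those minima, 81.1% as a median of genes and 77.0% without 4833439L19Rik; the last 2 lie above the other genes. The genomic share was 5.998%, 7.95% and, as a median of genes, 1.61%, above the other genes each time. The NIC and NNC share was 11.2% and 13.6%, 6.63% as a median of genes (other genes 6.58%) and 8.85% without 4833439L19Rik. NNC alone took 6.31% with classes recomputed from splice sites, against 5.23% as deposited; in the other genes it took 11.6% against 6.22%. Their deposited NIC and NNC shares changed order between libraries, 12.4% and 4.67% in replicate 1 and 5.93% and 8.11% in replicate 2. Median exons were 3 at a minimum of 5 reads and 3 by main model. Median length was 2306.5 nt at 50 reads, 1834 nt at 5, 1982 nt with annotated models and 1926 nt by main model, and between 1973.5 and 1982.5 nt in single libraries. Starts on the other strand were found for 24.5% within 500 bases, 24.5% among neighbours with reads and 25% at 50 reads, the last below the 27.8% of other genes. Depth limits all shares of genes near 20 reads.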
